A study of Cricetulus griseus with 16 samples.

Results

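CYTB, COX1, COX2, COX3, ATP6 and ATP8 are the mitochondrially encoded subunits of respiratory complexes III and IV and of ATP synthase, which is complex V. They were the 6 genes, of 20824 listed, whose name was exactly one of these symbols, and each symbol matched a single gene. CYTB (ENSCGRG00001000035) belongs to complex III. COX1 (ENSCGRG00001000016), COX2 (ENSCGRG00001000019) and COX3 (ENSCGRG00001000023) belong to complex IV. ATP6 (ENSCGRG00001000022) and ATP8 (ENSCGRG00001000021) belong to ATP synthase. All 6 passed the filter on low counts in all 6 comparisons made, and no library had fewer than 4000 counts on any of them, a number at which counting error alone gives an SD of 1.58%.

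Mammalian mitochondria keep a small circular genome of their own, which a dedicated RNA polymerase copies into long precursor RNAs that are then cut into separate messengers, ribosomal RNAs and transfer RNAs. Its messengers encode only subunits of the oxidative phosphorylation machinery, each assembled with many partners encoded in the nucleus. Electrons pass through complexes I, III and IV to oxygen, protons are pumped across the inner membrane, and ATP synthase uses their return to make ATP.

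CHO cells, an established line from Chinese hamster ovary (CCL-61), were seeded 24 h before treatment and kept at 37 °C or heated to 40 °C for 1 h, to 40 °C for 6 h, or to 42.5 °C for 1 h. There were 4 biological repeats in each group, lettered A to D, and no group differed in genotype. The study asked how heat doses of different strength change the transcriptome. Each library held 10504192 to 14668365 counts in all. The markers of mesenchymal cells Vim, Lgals1 and S100a6 averaged 2231, 490 and 1194 CPM (read counts scaled to the library total with TMM factors) at 37 °C, while Ptprc, Epcam and Myh6, which mark leukocytes, epithelium and heart muscle, had 0 counts in the 37 °C libraries. Myh6 had 3 to 7 counts in each 42.5 °C library and 0 in all others. Pecam1 (endothelium) and Alb (liver) averaged 0.0477 and 0.125 CPM, and the epithelial marker Cdh1 averaged 2.91 CPM, with 26 to 48 counts in replicates A, B and C. Against those 3 replicates, Vim and Lgals1 were lower after 6 h at 40 °C (log2 fold changes -0.15 and -0.21) and S100a6 was higher at 42.5 °C (0.26), and none of the 3 passed there with all 4 controls.

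Among the 37 °C libraries, replicate D stood apart. Across genes, it differed from A, B and C by a chi-square per degree of freedom of 41.8 to 49.4, against 2.78 to 4.86 among those 3. It was the control sample that the authors excluded, so the tests used A, B and C, and results against 37 °C are also given with all 4. Replicate D matters for the genes described here, because their CPM and their summed share of counts were higher in it than in the other controls.

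The 6 genes together took 2.08%, 1.51% and 1.54% of all counts in 37 °C replicates A, B and C, and 2.38% in D. After 1 h at 40 °C the summed share was 2.07%, 1.77%, 1.63% and 2.17% in replicates A to D, and after 6 h it was 1.75%, 2.31%, 2.16% and 2.01%. At 42.5 °C it was 2.52%, 2.52%, 2.54% and 2.51%. The 42.5 °C libraries lay above every other library, whereas the remaining groups overlapped with each other. The mean share was 1.71% ± 0.322 (SD, n = 3) at 37 °C, or 1.88% ± 0.424 (SD, n = 4) with replicate D, 1.91% ± 0.253 (SD, n = 4) after 1 h at 40 °C, 2.06% ± 0.240 (SD, n = 4) after 6 h and 2.52% ± 0.0152 (SD, n = 4) at 42.5 °C. These values are relative to the library. A higher share can reflect more RNA of these genes or less of other RNA, and, as in any bulk sample, fewer cells and less RNA per cell cannot be told apart.

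CYTB, the core subunit of complex III that carries its haem b groups, measured 1858, 1412 and 1523 CPM in 37 °C replicates A, B and C and 2337 CPM in D. After 1 h at 40 °C, CYTB measured 2104, 1877, 1732 and 2300 CPM in replicates A to D. At 6 h it measured 2089, 2929, 2702 and 2535 CPM, and at 42.5 °C 2686, 3001, 2592 and 2783 CPM. All libraries at 6 h and at 42.5 °C lay above control replicates A, B and C, but replicate D was above the lowest of the 6 h libraries.

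COX1, the catalytic subunit of complex IV that reduces oxygen, measured 9816, 6635 and 6561 CPM in 37 °C replicates A, B and C and 10690 CPM in D. The heated COX1 values, in the order A to D, were 9711, 7986, 6948 and 10010 CPM after 1 h at 40 °C and 7509, 10400, 9534 and 8377 CPM after 6 h. At 42.5 °C COX1 measured 11510, 11250, 12150 and 11990 CPM. Controls A and D were high and B and C low for COX1, so that both groups at 40 °C overlapped with the controls, and the 42.5 °C libraries lay above all others.

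COX2, which takes electrons from cytochrome c through its copper centre, measured 2795, 2069 and 2125 CPM in 37 °C replicates A, B and C and 3647 CPM in D. Its values were 2722, 2277, 2142 and 2696 CPM after 1 h at 40 °C and 2229, 3089, 2663 and 2645 CPM after 6 h. In the 42.5 °C libraries COX2 measured 3167, 3240, 3094 and 3086 CPM. Replicate D at 37 °C was the highest of all 16 libraries for COX2, while every 42.5 °C library lay above the remaining controls.

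COX3, the last of the complex IV core subunits, measured 3285, 2631 and 2776 CPM in 37 °C replicates A, B and C and 4215 CPM in D. It measured 3382, 2947, 2953 and 3503 CPM after 1 h at 40 °C and 3000, 3487, 3478 and 3460 CPM after 6 h. The 42.5 °C libraries gave COX3 values of 4530, 4653, 4519 and 4378 CPM, above every other library. At 6 h, replicate A was low and the other replicates lay close together.

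ATP6, which forms part of the proton path of ATP synthase, measured 2256, 1523 and 1771 CPM in 37 °C replicates A, B and C and 3119 CPM in D. Its values were 2229, 1832, 1871 and 2475 CPM after 1 h at 40 °C and 1903, 2758, 2404 and 2358 CPM after 6 h. At 42.5 °C ATP6 measured 3223, 3148, 3009 and 3307 CPM. Those libraries lay above controls A, B and C, but replicate D was above the lowest of them.

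ATP8, a small subunit of the membrane part of ATP synthase, is encoded on the same messenger as ATP6, with overlapping reading frames in mammals. It measured 445.5, 335.2 and 344.9 CPM in 37 °C replicates A, B and C and 479 CPM in D. After 1 h at 40 °C ATP8 measured 440, 335, 394 and 490 CPM, and after 6 h 465, 542, 511 and 469 CPM. At 42.5 °C ATP8 measured 857, 860, 688 and 562 CPM, all above every library of the other groups. Reads in the overlap of ATP8 and ATP6 cannot be assigned to either gene from the counts.

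**Figure D1:**
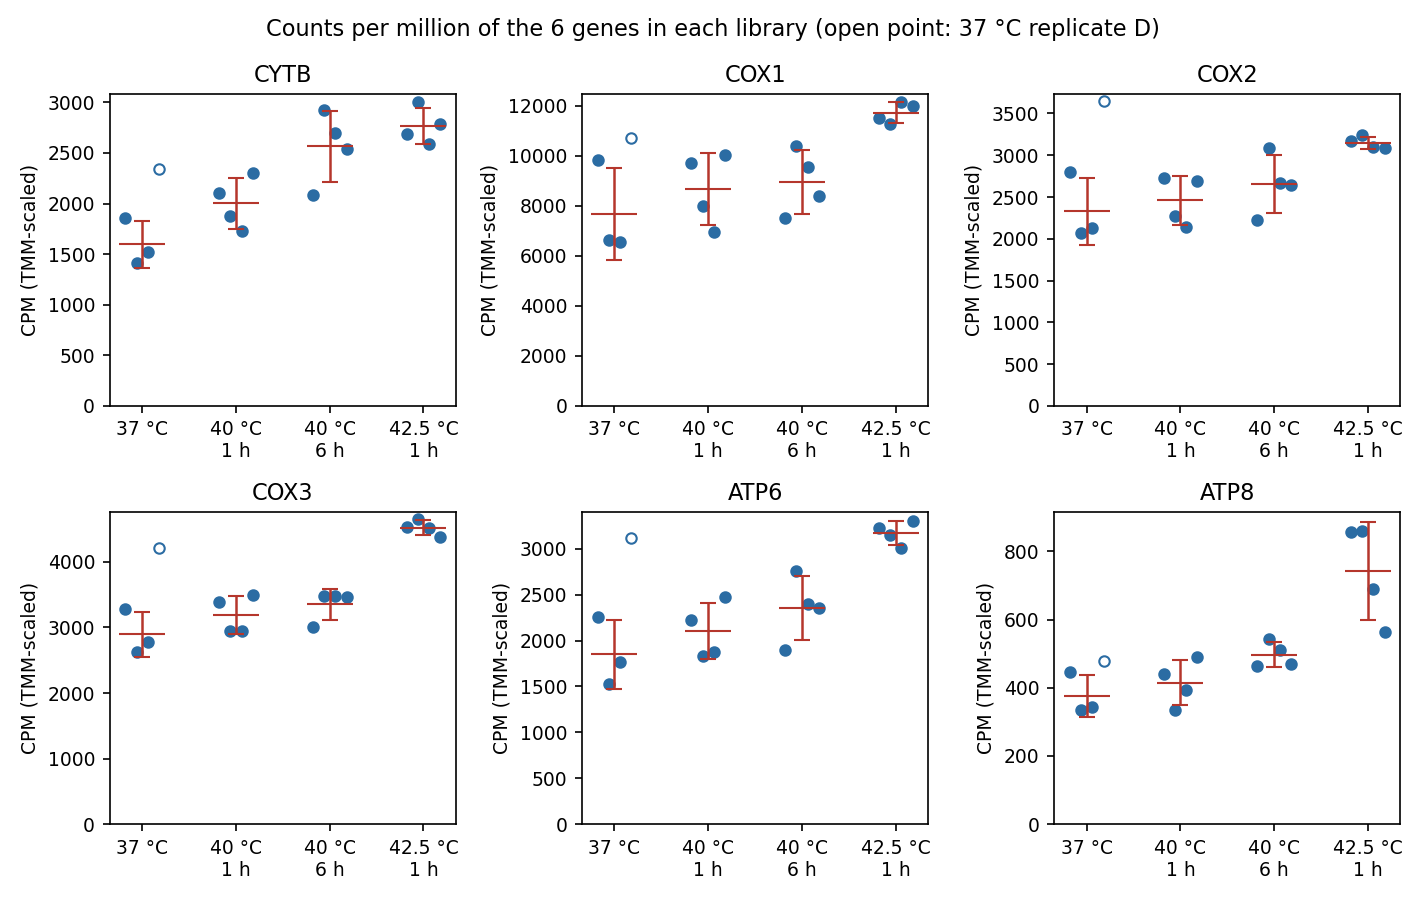
CPM (TMM-scaled, vertical axis from 0) of each of the 6 genes in the 16 libraries, by group, with 37 °C replicate D as the open point and mean ± SD of the other 15 libraries in red. For COX1, COX3 and ATP8 the 42.5 °C points lie above all others, for COX1 at 11250 to 12150 CPM.

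Mean CPM followed the same order in all 6 genes when 37 °C replicate D was left out, lowest at 37 °C, then 1 h at 40 °C, then 6 h at 40 °C, and highest at 42.5 °C. Means and SDs for CYTB were 1598 ± 232 CPM (SD, n = 3), 2003 ± 250 (SD, n = 4), 2564 ± 355 (SD, n = 4) and 2766 ± 176 CPM (SD, n = 4). Neighbours in this order did not all differ. No gene passed the test between 37 °C and 1 h at 40 °C, CYTB and ATP8 passed between 1 h and 6 h at 40 °C, and all but CYTB passed between 6 h at 40 °C and 42.5 °C. With replicate D included, the 37 °C mean of COX2 was 2659 CPM, above the means of both 40 °C groups, and those of COX3 (3227 CPM) and ATP6 (2167 CPM) lay above the means after 1 h at 40 °C. The spread between replicates was smallest at 42.5 °C for CYTB, COX1, COX2, COX3 and ATP6, with a coefficient of variation of 2.3% to 6.35%, against 11.9% to 24.2% in control replicates A, B and C. For ATP8 it was 19.4% at 42.5 °C and 16.3% at 37 °C.

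After 1 h at 40 °C, none of the 6 genes passed the test against 37 °C. Genes were called higher or lower at an adjusted p under 0.05 (edgeR's quasi-likelihood test, Benjamini-Hochberg over 10494 genes), and differentially expressed genes (DEGs) had in addition a fold change of at least 1.5. By this rule 1.07% of all genes tested were higher, 0.276% were DEGs that were higher and 0.572% were lower. The 6 genes had 0 calls with edgeR and 0 with DESeq2, and 1 of them, CYTB, had an unadjusted p under 0.05. CYTB had a log2 fold change of 0.33 (adjusted p = 0.0971, SE 0.0923), with a 95% interval of 0.13 to 0.52. The other log2 fold changes were between 0.08 for COX2 and 0.18 for ATP6, and their intervals reached from -0.13 to 0.46 at the widest, so that a fold change of 1.5 lay outside all 5. Libraries of the groups overlapped for all 6 genes, while 6.8% of genes tested had all heated libraries above all controls. Without control replicate A, CYTB passed (log2 fold change 0.45, adjusted p = 0.0263; lowest and highest adjusted p over 17 alternatives 9.77e-05 and 0.926). CYTB also passed with no filter on low counts (adjusted p = 0.00157). A block for the replicate letter let CYTB and COX3 pass, at log2 fold changes of 0.26 and 0.10 (adjusted p = 9.77e-05 and 0.024). Using all 4 controls, edgeR and DESeq2 each called 0 of the 6, 0 had an unadjusted p under 0.05, the log2 fold changes were between -0.11 for COX2 and 0.17 for CYTB, and 0.0191% of genes tested were higher.

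Of all genes tested, 14.7% were higher and 14.8% lower after 6 h at 40 °C than at 37 °C. Among the 6 genes, 4 were higher, namely CYTB, COX3, ATP6 and ATP8. DESeq2 called 3 of them with the same libraries and not ATP6 (adjusted p = 0.175; lowest and highest adjusted p over 17 alternatives 5.9e-05 and 0.74). The largest change was in CYTB, with a log2 fold change of 0.68 (adjusted p = 8.15e-05, SE 0.0968), equal to a fold change of 1.60. CYTB was the single DEG among the 6, against 1.45% of genes tested that were DEGs and higher. ATP8 rose by 0.40 on the log2 scale (adjusted p = 0.0014, SE 0.0804), ATP6 by 0.35 (adjusted p = 0.027, SE 0.112) and COX3 by 0.21 (adjusted p = 0.0353, SE 0.0715). COX1 and COX2 did not pass, with log2 fold changes of 0.22 (95% interval -0.03 to 0.47) and 0.19 (95% interval -0.02 to 0.39). In a separate fit with no filter on low counts both passed, at 0.21 and 0.18. CYTB and ATP8 were the 2 genes whose 6 h libraries all lay above controls A, B and C, a separation seen in 18.6% of genes tested. When the 37 °C libraries were collected is not stated. Heat and time in culture therefore cannot be told apart at 6 h, here or in the comparisons with the 1 h groups.

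The rise at 6 h depended on which control libraries were used. When all 4 were used, 0 of the 6 genes passed edgeR's test, with 2, CYTB and ATP8, at an unadjusted p under 0.05, and DESeq2 called 1, while 5.42% of genes tested were higher and 1.07% were DEGs and higher. CYTB then had a log2 fold change of 0.52 (adjusted p = 0.0627, SE 0.159; lowest and highest adjusted p over 17 alternatives 1.11e-14 and 0.115) and ATP8 of 0.31 (SE 0.117). COX2 had a log2 fold change of -0.003 with all 4 controls. None of the 6 genes was then free of overlap between groups, against 12.1% of genes tested. Among fits that left out a single library, with replicate D out throughout, CYTB and ATP8 passed in 7 of 7. COX3 and ATP6 each lost their call without control B, without control C, and without 6 h replicate B or C, and COX3 also without 6 h replicate D. A block for the replicate letter also ended the calls of COX3 and ATP6, at log2 fold changes of 0.20 and 0.35 (adjusted p = 0.104 and 0.078). COX1 and COX2 passed without control A, with log2 fold changes of 0.44 and 0.34, and COX2 also without 6 h replicate A.

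At 42.5 °C for 1 h, all 6 genes were higher than at 37 °C, where 20.8% of all genes tested were higher and 22.3% lower. ATP8 had the largest log2 fold change, 0.98 (adjusted p = 1.56e-05, SE 0.122), which is a fold change of 1.97. CYTB rose by 0.78 (adjusted p = 8.33e-07, SE 0.0729), ATP6 by 0.77 (adjusted p = 6.36e-06, SE 0.0884) and COX3 by 0.63 (adjusted p = 7.94e-07, SE 0.0587). COX1 rose by 0.61 (adjusted p = 0.000196, SE 0.1) and COX2 by 0.43 (adjusted p = 0.000331, SE 0.0754). All but COX2, whose fold change was 1.34, were DEGs, which makes 5 of 6 against 2.83% of genes tested that were DEGs and higher. That of COX1, 1.52, lay just above the threshold, and without control B 3 of the 6 were DEGs. In order of rise among 10470 genes tested, ATP8 stood at place 133, CYTB at 182, ATP6 at 188, COX3 at 267, COX1 at 303 and COX2 at 520. Every one of the 6 genes had all 42.5 °C libraries above controls A, B and C, a separation found in 23.1% of genes tested, and each passed in 7 of 7 fits with a library left out.

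Once replicate D was included, edgeR called CYTB, COX3 and ATP8 higher at 42.5 °C and not the other 3 genes, DESeq2 called 5 of the 6, and 6.82% of genes tested were higher. CYTB had a log2 fold change of 0.64 (SE 0.137), COX3 of 0.49 (SE 0.128) and ATP8 of 0.89 (SE 0.155). COX1 had 0.48 (adjusted p = 0.0584, the highest over 17 alternatives, the lowest being 3.31e-13) and ATP6 had 0.56 (adjusted p = 0.0596; lowest and highest adjusted p 1.59e-18 and 0.106). COX2 had a log2 fold change of 0.25 with a 95% interval of -0.09 to 0.60. CYTB and ATP8 were DEGs, 2 of 6 against 2.46% of genes tested. CYTB, COX1, COX3 and ATP8 had every 42.5 °C library above all 4 controls, against 13.4% of genes tested. The 3 comparisons with 37 °C share their control libraries and are not independent of each other.

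**Figure D2:**
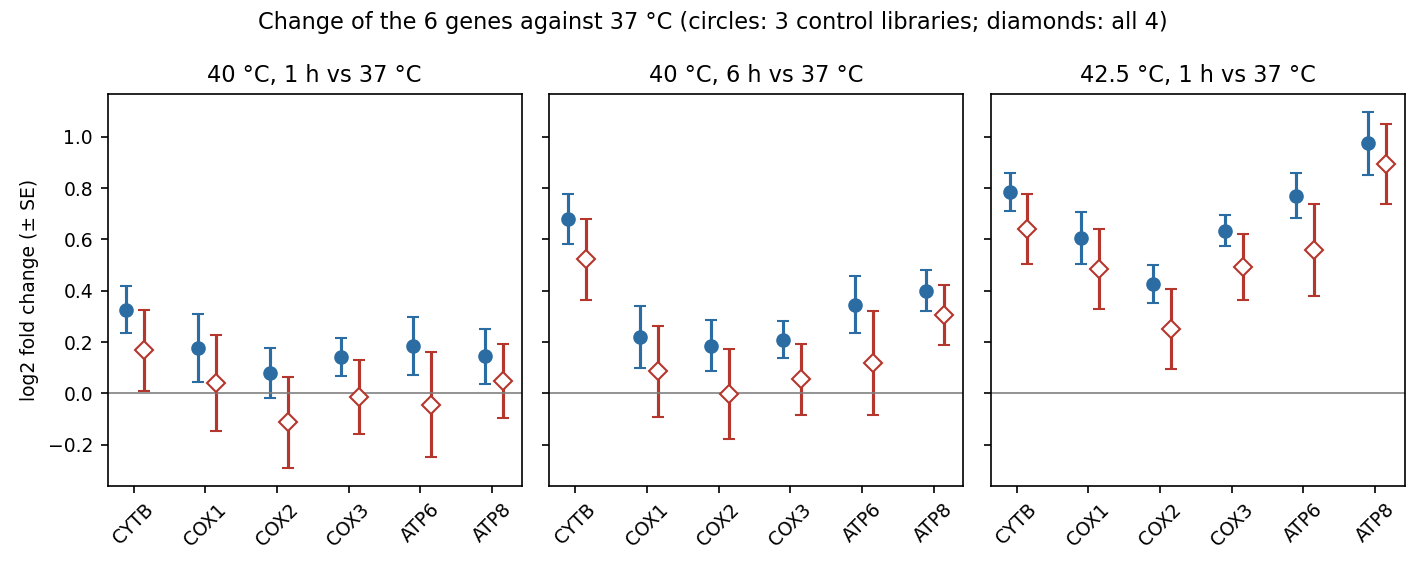
Log2 fold change against 37 °C (vertical axis, ± SE) of the 6 genes after 1 h and 6 h at 40 °C and 1 h at 42.5 °C, with circles for control replicates A, B and C and diamonds for all 4 controls. Each diamond lies below its circle, for CYTB at 6 h at 0.52 against 0.68.

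Between 6 h and 1 h at 40 °C, CYTB and ATP8 were higher at 6 h, 2 of the 6 genes against 9.45% of genes tested. CYTB had a log2 fold change of 0.36 (adjusted p = 0.0132, SE 0.0917) and ATP8 of 0.26 (adjusted p = 0.0428, SE 0.0852). The other log2 fold changes were 0.05 for COX1 (95% interval -0.18 to 0.27), 0.11 for COX2, 0.07 for COX3 and 0.16 for ATP6. No gene of the 6 was a DEG, against 0.556% of genes tested, and the libraries overlapped for all 6, where 10.9% of genes tested had all 6 h libraries above all 1 h libraries. DESeq2 called 0 of the 6, and neither CYTB nor ATP8 passed without 1 h replicate C or without 6 h replicate B. ATP8 also lost its call without 1 h replicate B or 6 h replicate C, and ATP6 gained one without 6 h replicate A.

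The comparison of both temperatures at equal time did not involve the 37 °C libraries. All 6 genes were higher after 1 h at 42.5 °C than after 1 h at 40 °C, where 16.4% of genes tested were higher, and for all 6 every library at 42.5 °C lay above every library at 40 °C, a separation found in 16.3% of genes tested. The log2 fold changes were 0.46 for CYTB, 0.43 for COX1, 0.35 for COX2, 0.49 for COX3, 0.59 for ATP6 and 0.83 for ATP8. The SE was between 0.0525 for COX3 and 0.119 for ATP8, and the highest adjusted p was 0.00101, for COX1. ATP6 and ATP8 were DEGs, 2 of 6 against 1.75% of genes tested, with fold changes of 1.502 and 1.779. Without 1 h replicate B, without 1 h replicate C or without 42.5 °C replicate D, 1 of the 6 was a DEG. All 6 passed the adjusted p in each of 16 alternatives. Among the cell type markers, S100a6 (log2 fold change 0.26, adjusted p = 0.00866) and Cdh1 (0.51, adjusted p = 0.0494) were also higher at 42.5 °C. Vim and Lgals1 did not pass.

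Against 6 h at 40 °C, 5 of the 6 genes were higher at 42.5 °C, and 22.5% of genes tested were higher. ATP8 had a log2 fold change of 0.57 (adjusted p = 0.000154, SE 0.0979), followed by COX3 and ATP6 with 0.42 each, COX1 with 0.38 and COX2 with 0.24 (adjusted p = 0.00874, SE 0.0684). CYTB did not pass, with a log2 fold change of 0.10 (adjusted p = 0.277, SE 0.0754) and a 95% interval of -0.06 to 0.26. COX1, COX3, ATP6 and ATP8 had all libraries at 42.5 °C above all libraries at 6 h, against 20.5% of genes tested. None of the 6 was a DEG, where 2.53% of genes tested were DEGs and higher, although 1 was without 6 h replicate B or C or without 42.5 °C replicate C or D. Vim (log2 fold change 0.20, adjusted p = 0.00221) and S100a6 (0.36, adjusted p = 1.68e-05) were also higher at 42.5 °C. Lgals1 and Cdh1 did not pass.

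Shares within the counts on all 13 mitochondrially encoded protein genes were used to describe the balance among them. The share depends on gene length, which was not used here, and so each gene is compared only with itself. CYTB held 6.49% ± 0.291 (SD, n = 3) of these counts at 37 °C, 7.31% ± 0.180 (SD, n = 4) after 1 h at 40 °C, 8.22% ± 0.247 (SD, n = 4) after 6 h and 7.25% ± 0.395 (SD, n = 4) at 42.5 °C. COX2 held 9.43% ± 0.148 (SD, n = 3), 8.98% ± 0.182 (SD, n = 4), 8.53% ± 0.195 (SD, n = 4) and 8.25% ± 0.101 (SD, n = 4) in the same order. The CYTB share was thus largest after 6 h at 40 °C, and the COX2 share was largest at 37 °C and smallest at 42.5 °C. COX1 held 30.8%, 31.5%, 28.7% and 30.8%, COX3 11.8%, 11.7%, 10.8% and 11.8%, and ATP6 7.47%, 7.66%, 7.55% and 8.32%. The exact two-sided permutation test over libraries gave its smallest possible p of 0.0286 in 11 of 36 tests of these shares. The tests were added after the values were seen. After adjustment over the 36 tests 0 of them passed, and the lowest adjusted p was 0.0936. With 3 or 4 libraries a group, that smallest p cannot pass unless many more of the tests reach it. This outcome is therefore no sign that the shares stayed the same.

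ATP8 held 1.52% ± 0.0364 (SD, n = 3) of the 13 genes' counts at 37 °C and 1.94% ± 0.342 (SD, n = 4) at 42.5 °C. Because ATP8 and ATP6 share a messenger, their counts were also set against each other. ATP8 counts per 100 ATP6 counts were 19.74, 22.01 and 19.47 in 37 °C replicates A, B and C and 15.4 in D. They were 19.7, 18.3, 21.1 and 19.8 after 1 h at 40 °C, 24.4, 19.7, 21.2 and 19.9 after 6 h, and 26.6, 27.3, 22.9 and 17.0 at 42.5 °C. Replicates A and B at 42.5 °C were the highest of all libraries in this ratio and replicate D there was below all but 37 °C replicate D, so that the 42.5 °C group overlapped with the others.

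Over the 15 libraries used in the tests, log2 CPM of the 6 genes were correlated with each other at Pearson's r between 0.83 and 0.97, with a median of 0.905 over 15 pairs. This is a description, since the libraries share the group differences, and no p is given. With the mitochondrially encoded subunits (ND1, ND2, ND3, ND4, ND4L, ND5 and ND6) of complex I, the complex that takes electrons from NADH, the 42 pairs gave r between 0.6 and 0.974. None of the 7 complex I genes passed after 1 h at 40 °C with edgeR or DESeq2, nor had any an unadjusted p under 0.05, while 5 of 7 were higher after 6 h and 7 of 7 at 42.5 °C (14.7% and 20.8% of all genes tested; 4 and 6 of 7 called by DESeq2), with median log2 fold changes of 0.05, 0.31 and 0.61. The medians over the 6 genes of complexes III to V were 0.16, 0.28 and 0.70, and those over all genes tested were 0.0003, 0.0012 and -0.0017. With all 4 controls, 2 and 4 of the 7 complex I genes were higher after 6 h at 40 °C and at 42.5 °C, against 5.42% and 6.82% of all genes tested. The medians were then 0.03, 0.34 and 0.49 for complex I and 0.01, 0.10 and 0.53 for the 6 genes. The 6 genes together made up 67.5% ± 0.536 (SD, n = 3) of the 13 genes' counts at 37 °C, 68.6% ± 0.670 (SD, n = 4) after 1 h at 40 °C, 65.5% ± 0.722 (SD, n = 4) after 6 h and 68.3% ± 1.68 (SD, n = 4) at 42.5 °C, with 71.9% in 37 °C replicate D.

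The nuclear-encoded partners of the 6 genes were taken from the lists described in the methods. Not all listed subunits were found by name, only 7 of 9 of complex III, 8 of 12 of complex IV and 13 of 19 of complex V. After 1 h at 40 °C, edgeR called 0 of 7 tested subunits of complex III, 0 of 8 of complex IV and 0 of 13 of complex V, with 0, 3 and 3 at an unadjusted p under 0.05 and 0 called by DESeq2. All 4 controls gave 0 in each list with either tool and 0 at an unadjusted p under 0.05. After 6 h, Cyc1, the cytochrome c1 subunit of complex III, fell by 0.18 on the log2 scale (adjusted p = 0.00687, SE 0.0452), 0 of 8 subunits of complex IV passed with edgeR or DESeq2, and 1 had an unadjusted p under 0.05. Of all genes tested, 14.7% were higher and 14.8% lower at 6 h. In complex V Atp5j rose by 0.33 (adjusted p = 0.000457, SE 0.0573) and Atpif1, an inhibitor of ATP synthase, fell by 0.21 (adjusted p = 0.0485, SE 0.0783), and DESeq2 called 1 of the 13. With replicate D included these calls at 6 h were lost in edgeR, which called 0 subunits in the 3 lists, with 2, 0 and 1 at an unadjusted p under 0.05, and DESeq2 called 1, in complex III. Of all genes tested, 5.42% were then higher and 5.32% lower. At 42.5 °C 1 of 7 subunits of complex III was higher, namely Uqcrc2 (log2 fold change 0.28), as were 6 of 8 of complex IV, among them Cox6b1 (0.31) and Cox7c (0.29), and 9 of 13 of complex V, among them Atp5j (0.60) and Atp5mpl (0.37), against 20.8% of all genes tested. DESeq2 called 1, 4 and 9 subunits in these lists. The median log2 fold changes at 42.5 °C were 0.03, 0.18 and 0.13 for these lists, against 0.70 for the 6 mitochondrially encoded genes. Including replicate D, 0 subunits of the 3 lists passed with edgeR or DESeq2 at 42.5 °C, and 1, in complex III, had an unadjusted p under 0.05. Of all genes tested, 6.82% were then higher and 11.4% lower. The medians of the 3 lists were then -0.05, 0.01 and 0.03, against 0.53 for the 6 genes. None of 6 names for mitochondrial ribosomal RNA was matched, and it was not analysed here.

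By name, 29 of 30 listed assembly factors and 25 of 31 listed factors of mitochondrial RNA or DNA were found. Of 29 tested assembly factors of complexes III to V, 0 passed after 1 h at 40 °C with edgeR or DESeq2, and 0 had an unadjusted p under 0.05 in edgeR, with 3 or with all 4 controls. After 6 h 3 were higher, among them Cox10, which makes the haem of COX1 (0.29), and Uqcc1, which serves CYTB (0.27), against 14.7% of all genes tested. At 42.5 °C 3 were higher, among them Pet100 (0.41) and Cox20, a chaperone of COX2 (0.25), and 4 were lower, among them Sco2, which delivers copper to COX2 (-0.34), and Coa5 (-0.45), where 20.8% of all genes tested were higher and 22.3% lower, and DESeq2 called 4 of the 29 against edgeR's 7. With replicate D included, edgeR called 0 of the assembly factors at 6 h, with 3 at an unadjusted p under 0.05 and 1 called by DESeq2, and at 42.5 °C 0 were higher and 1 was lower, where 6.82% of all genes tested were higher and 11.4% lower. Of 25 tested factors of mitochondrial RNA synthesis, processing and decay or of mitochondrial DNA replication, 0 passed after 1 h at 40 °C with edgeR or DESeq2, and 4 had an unadjusted p under 0.05, or 0 and 1 with all 4 controls. At 6 h 7 were higher, with Fastkd1 (0.53) and Fastkd2 (0.26) first, and 1, Fastk, was lower (-0.48), against 14.7% and 14.8% of all genes tested. Using all 4 controls, 1 was higher and 1 lower, against 5.42% and 5.32% of all genes tested. At 42.5 °C 8 were higher, with Trmt10c, part of mitochondrial RNase P (0.49), and Fastkd5 (0.43) first, and 7 were lower, 2 of which act in DNA replication, against 20.8% and 22.3% of all genes tested. Polrmt, the polymerase that makes the RNAs of all 6 genes, fell by 0.63 (adjusted p = 5.47e-07, SE 0.0564), from a mean of 104.5 to 67.8 CPM, followed by Mrm2 with -0.48. With all 4 controls 2 of these factors were higher and 6 lower at 42.5 °C, against 6.82% and 11.4% of all genes tested.

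The 5 genes outside the 13 whose log2 CPM was most like the mean of the 6 genes over 15 libraries were Ctsk (r = 0.948), ENSCGRG00001013403 (r = 0.939), Rpl26 (r = 0.93), Ubqln1 (r = 0.914) and ENSCGRG00001019504 (r = 0.909). Ctsk averaged 0.793 CPM at 37 °C and 4.56 CPM at 42.5 °C. In the same libraries the heat-induced chaperone gene Hspb1 had fold changes of 2.17, 2.89 and 7.87 after 1 h at 40 °C, 6 h at 40 °C and 1 h at 42.5 °C. Dnajb1, which works with heat shock protein 70, had 3.09, 1.57 and 13.8, and Hspa5, the chaperone of the endoplasmic reticulum, had 1.15, 2.18 and 1.23. Hspa5 at 1 h at 40 °C did not pass (adjusted p = 0.0797) and the other 8 did. When all 4 controls were used, the fold changes were 1.77, 2.36 and 6.49 for Hspb1, 2.98, 1.51 and 13.4 for Dnajb1 and 1.08, 2.05 and 1.16 for Hspa5. None of the 3 genes then passed edgeR's test after 1 h at 40 °C (adjusted p = 0.408, 0.114 and 0.926), and Hspa5 did not pass at 42.5 °C. The fourth heat control on the list, Hspa8, was not analysed here.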

How the data were processed

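RNA of CHO cells was measured in 16 libraries, 4 biological repeats in each of 4 groups. The authors isolated total RNA with a NucleoSpin kit, made libraries with a TruSeq kit, sequenced paired ends, and used CLC Genomics Workbench for trimming, for mapping to CHOK1GS_HDv1, a Chinese hamster assembly, and for counting. Deposited by the authors were raw counts per gene, whole numbers with no normalization. The annotation release, strand setting and treatment of reads with several mapping places are not given in the sources used here.

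The 6 genes were taken by exact name. Each pair of groups was compared on its own libraries with the quasi-likelihood test of edgeR 4.0.16 in R 4.3.3 (TMM scaling, filterByExpr at its defaults). P-values were adjusted by Benjamini-Hochberg over all genes tested. The authors excluded 1 control sample. It was identified as 37 °C replicate D by matching counts, and was left out of the tests and given as an alternative. CPM values were scaled by TMM over all 16 libraries. Intervals are 95% intervals from the fit, with its moderated degrees of freedom.

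The members and the gene lists were chosen with earlier results of these data known. From each list at most 4 genes are named per comparison with 37 °C, those passing the test with the 2 largest rises and the 2 largest falls. The lists held the other mitochondrially encoded subunits, mitochondrial ribosomal RNA, the nuclear-encoded subunits of complexes III, IV and V, assembly factors, factors of mitochondrial RNA synthesis, processing and decay (with 3 factors of mitochondrial DNA replication, Polg, Polg2 and Twnk), cell type markers and 4 heat controls. The alternatives were DESeq2's size factors, library totals, scaling on nuclear-encoded genes, no filter, at least 10 counts in every library, all 4 controls, DESeq2 1.42.0 with its Wald test, a block for the replicate letter, 1 fit over all groups, and each library left out. Controls B, C and D, the counts of lists and the tests of markers and heat controls with all 4 controls, the DESeq2 counts of lists and of all 4 controls, and the test of shares were added after seeing the data. The test was tested on simulated data.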

Additional observations from a re-analysis of the deposited data

Results flagged for a closer look

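COX3 in 40 °C 6 h replicate A measured 3000 CPM, far below the other replicates of its group, which measured 3487, 3478 and 3460 CPM. It was the 1 case among 32 groups of 4 values examined. Chance flags about 1 in 20 groups.

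Between 6 h and 1 h at 40 °C, CYTB had a log2 fold change of 0.36 and ATP8 of 0.26, and both passed edgeR's test between these groups. DESeq2 called 0 of the 6 genes, and the libraries overlapped for both. With 1 library left out, CYTB passed in 6 of 8 fits and ATP8 in 4 of 8.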

How the results depend on the processing

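With all 4 controls, 0 of the 6 genes passed after 6 h at 40 °C, 0 were DEGs, and at 42.5 °C 3 passed and 2 were DEGs. With controls B, C and D, chosen after seeing the data, these counts were 0, 0, 2 and 2. After 1 h at 40 °C, all 4 controls gave log2 fold changes of -0.1127 for COX2, -0.0135 for COX3 and -0.0443 for ATP6, and controls B, C and D gave -0.0867, -0.0038 and -0.0229. After 6 h, COX2 had -0.0032 with all 4 controls. These genes have a higher share of counts in replicate D than in A, B and C.

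Without a filter 1 gene, CYTB, passed after 1 h at 40 °C, all 6 passed after 6 h, COX1 (adjusted p = 0.0162) and COX2 (0.0275) included, and 1 was a DEG between 42.5 °C and 40 °C at 1 h. Library totals without TMM left 3 DEGs at 42.5 °C against 37 °C and 1 against 1 h at 40 °C. DESeq2's Wald test called 3 genes after 6 h, not ATP6. Between 6 h and 1 h at 40 °C, DESeq2's Wald test called 0 and 1 fit over all groups 1. The summed share at 42.5 °C was 2.62% of nuclear-encoded counts. For these changes the cause was not tested.

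With the replicate letter as a block, 2 genes, CYTB and COX3, passed after 1 h at 40 °C and 2, CYTB and ATP8, after 6 h. Libraries of the same letter correlated, after subtracting group means, at r between -0.049 and 0.172. Not every such pair was above 0.1 in any comparison, and the letters were not treated as pairs. Mean r was higher for the same letter than for different letters in each comparison. It was 0.13 against -0.04 between 1 h at 40 °C and 37 °C, and 0.01 against 0 between 6 h and 37 °C. Whether the letters pair the samples was not settled by these values.

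With 1 library left out, the number of genes passing ranged from 0 to 1 after 1 h at 40 °C, from 2 to 6 after 6 h, and from 0 to 3 between 6 h and 1 h. The number of DEGs ranged from 3 to 5 at 42.5 °C against 37 °C, from 1 to 2 against 1 h at 40 °C and from 0 to 1 against 6 h at 40 °C. COX1 between 6 h and 1 h at 40 °C had log2 fold changes from -0.0449 to 0.1258, negative without 1 h replicate C (-0.0449) or 6 h replicate B (-0.0324).

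The libraries hold at least 4000 counts on each gene, where counting error alone gives an SD of 1.58%. The tests had 3 or 4 libraries a group. Whether depth or the number of libraries limits these values was not tested. The counts give shares of a library, with no external standard. Reads shared between overlapping genes, or with copies of mitochondrial DNA in the nucleus, cannot be told apart because the counting rules are not stated.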
